A study of Mus musculus with 4 samples.

Results

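Tlx1, Sez6, Pi15, Fmn2 and Megf10 are 5 protein-coding genes of the 54532 genes in the count files. In libraries of cells taken from tumours and labelled fibroblasts, they were close to silent without irradiation. In irradiated libraries they gave 354 to 1542 counts per library. They were chosen from these same counts: almost none in the unirradiated pair, over 400 summed in the irradiated pair, and no casein, collagen or fibrinogen gene. The difference between the groups is therefore how the 5 genes were found, and it is given here as a description, with no test.

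The libraries are bulk RNA sequencing of cells that the labels call CAFs, cancer-associated fibroblasts, taken from primary mouse breast tumours of the MMTV-PyMT model in C57BL/6 mice, also labelled Dll1 mcherry+. MMTV-PyMT is a transgene in which a mouse mammary tumour virus promoter drives the polyoma middle T oncogene in mammary epithelium. The irradiated group received targeted radiation of 6 Gy, at day 6 by its treatment label, and the unirradiated group received none. Each group held 2 libraries, called A and B here after their titles, and all titles carry day 6. Both groups carried the same transgene, reporter label and strain. Neither age nor the time between radiation and collection is given, and the labels leave unsaid whether A and B are different animals, so every spread and p-value covers only these libraries. Per the labels, digested tumours were treated with an antibody to PDGFRa, a fibroblast receptor, for detection of the fibroblasts, and a sort is not described there.

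These genes belong to unrelated protein families. Tlx1 encodes a homeobox transcription factor that is required for spleen formation in the mouse, and whose human counterpart is an oncogene of T-cell leukaemia. Sez6 encodes a neuronal membrane protein with CUB and sushi domains that is shed by the protease BACE1. Pi15 encodes a secreted protein of the CAP superfamily, named for trypsin inhibition by the human protein. Fmn2 encodes a formin, an actin nucleator that works with Spire proteins and is needed for meiotic divisions of the mouse oocyte. Megf10 encodes a membrane receptor with EGF-like repeats that takes part in engulfment by astrocytes and in the control of muscle satellite cells.

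The promoter windows are shown for the members found in the RefSeq promoter table, because the contrast lies between a near-silent and an active gene, and the promoter is where transcription starts. The table (GRCm38.p6) held 2 of the 5 genes, Tlx1 and Fmn2. The stretch from 250 to 36 bases before the RefSeq start is printed on the plus strand, which is the coding strand of both genes. Capitals mark CCAAT boxes (CCAAT, also as its reverse complement ATTGG) and GC boxes (GGGCGG).
Tlx1, chr19:45150465-45150679: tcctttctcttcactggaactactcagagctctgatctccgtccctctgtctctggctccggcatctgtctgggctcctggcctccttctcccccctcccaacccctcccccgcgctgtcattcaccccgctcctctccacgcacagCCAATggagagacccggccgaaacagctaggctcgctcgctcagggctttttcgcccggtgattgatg
Fmn2, chr1:174501575-174501789: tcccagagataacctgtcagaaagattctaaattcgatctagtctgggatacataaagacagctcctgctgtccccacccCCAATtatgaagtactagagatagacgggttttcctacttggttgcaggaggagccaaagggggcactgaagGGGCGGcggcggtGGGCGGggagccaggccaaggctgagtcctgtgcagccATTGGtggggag

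The Tlx1 window held 12 CpG dinucleotides in 215 bases, against a median of 5 over 32851 promoter windows of the same length, and its GC content was 61.9%. The Fmn2 window held 6 CpG dinucleotides at a GC content of 55.3%. Tlx1 held 1 CCAAT box and Fmn2 held 2 CCAAT boxes and 2 GC boxes, searched on both strands. Over all windows 30.4% held a CCAAT box and 27.7% a GC box. Neither window held a TATA box (TATAAA, in 9.75% of all windows), an AP-1 site (TGANTCA, 5.97%) or a STAT site (TTCNNNGAA, 6.14%). The windows end 36 bases before the RefSeq start, so a TATA box nearer to that start could not be found. Counted from the RefSeq starts, whether these promoters have a TATA box is therefore not answered by this search. The start given below for Tlx1, 45150680, differs from the RefSeq one and directly follows the last base of its window. An E-box (CANNTG) stood in the Tlx1 window and in 61.4% of all windows. These matches describe letters in a short window and say nothing of a factor's binding.

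Total counts were 15817969 and 23763830 in irradiated A and B and 17569515 and 13011489 in unirradiated A and B, so that 1 count stood for 0.0421 to 0.0769 CPM, counts scaled to a common library total. Levels below are CPM corrected by the TMM method, given as mean ± SD with n = 2 libraries per group. Of 15961 genes tested with edgeR's quasi-likelihood test, 5409 were higher in irradiated libraries and 5184 lower, with 0.05 as the limit for the Benjamini-Hochberg adjusted p, which is 33.9% and 32.5% of those tested and 66.4% together. A call in this comparison is therefore common, and shares of called genes are read below against these percentages. Positions are on mm10.

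Tlx1 (ENSMUSG00000025215, chromosome 19, 45150680 to 45156943, plus strand) had 484 and 753 counts in irradiated A and B, against 1 and 1 in unirradiated A and B. The scaled levels were 29.7 ± 0.902 CPM in the irradiated and 0.0703 ± 0.0150 CPM in the unirradiated libraries. The ratio of scaled counts was 435, with a 95% exact binomial interval of 120 to 3595 that covers counting error only. Of the 5 genes Tlx1 was the one nearest to 0 in unirradiated libraries, where a single count was found in each. Its fitted log2 fold change ranked 3 of 15961. The larger ones were of Xkr6 and Rspo3, which had 220 and 159 irradiated counts and 0 unirradiated counts, and were at least 51.6-fold and 37.3-fold higher against a floor of 3 counts over the group. Sez6 ranked 25, Pi15 34, Fmn2 39 and Megf10 51.

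Sez6 (ENSMUSG00000000632, chromosome 11, 77930800 to 77979048, plus strand) had 1042 and 1542 counts in irradiated A and B, against 16 and 4 in unirradiated A and B. Its level was 62.4 ± 0.316 CPM in irradiated and 0.639 ± 0.446 CPM in unirradiated libraries, the highest irradiated level of the 5 genes. The irradiated libraries were nearly equal, while unirradiated A stood at 0.954 CPM and unirradiated B at 0.324 CPM. The exact Poisson intervals of these levels, 0.546 to 1.55 CPM in A and 0.0882 to 0.829 CPM in B, overlapped. The ratio of scaled counts was 90.9 (58.7 to 149) and the log2 fold change 6.49 (SE 0.173). It was 7.56 without unirradiated A and 6.03 without unirradiated B, so the size of the difference rests on which near-empty library is used.

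Pi15 (ENSMUSG00000067780, chromosome 1, 17601901 to 17630939, plus strand) had 621 and 871 counts in irradiated A and B, against 10 and 8 in unirradiated A and B. Its level was 36.2 ± 1.56 CPM in irradiated and 0.622 ± 0.0358 CPM in unirradiated libraries. It had the smallest relative spread of the 5 genes in the unirradiated pair, with a log2 fold change of 5.85 (SE 0.204) and a ratio of scaled counts of 58.3 (36.8 to 98.6).

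Fmn2 (ENSMUSG00000028354, chromosome 1, 174501825 to 174822729, plus strand) had 354 and 557 counts in irradiated A and B, against 11 and 3 in unirradiated A and B. Its level was 21.9 ± 0.838 CPM in irradiated and 0.449 ± 0.292 CPM in unirradiated libraries. Unirradiated A stood above unirradiated B, as for Sez6, and the log2 fold change of 5.49 (SE 0.252) was 6.46 without unirradiated A and 5.06 without unirradiated B. The ratio of scaled counts was 45.8 (27.1 to 84.0). The exact Poisson interval of the unirradiated levels reached from 0.328 to 1.17 CPM in A and from 0.0501 to 0.709 CPM in B, so the A and B intervals overlapped.

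Megf10 (ENSMUSG00000024593, chromosome 18, 57133090 to 57297467, plus strand) had 451 and 652 counts in irradiated A and B, against 11 and 12 in unirradiated A and B. Its level was 26.7 ± 0.576 CPM in irradiated and 0.814 ± 0.223 CPM in unirradiated libraries, with a log2 fold change of 5.06 (SE 0.213). Its unirradiated sum of 23 counts was the highest of the 5 genes, and its ratio of scaled counts, 33.7 (22.4 to 53.4), the lowest.

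**Figure D1:**
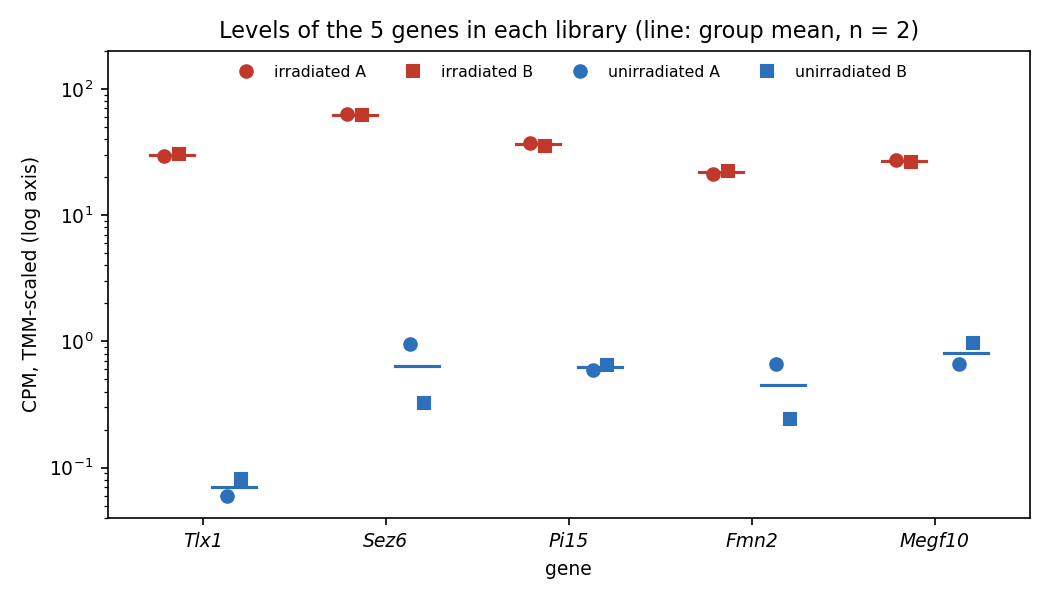
TMM-scaled CPM (log axis) of the 5 genes in each library, with irradiated libraries in red left of unirradiated ones in blue and a line at each group mean (n = 2). Irradiated levels lie between 21.3 and 62.7 CPM and unirradiated levels between 0.0597 and 0.971 CPM.

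The irradiated libraries did not overlap the unirradiated ones for any of the 5 genes, as the choice of the genes requires, and 41.5% of all tested genes were likewise higher without overlap. Between irradiated B and A the ratio of CPM was 1.04 for Tlx1, 0.993 for Sez6, 0.941 for Pi15, 1.06 for Fmn2 and 0.970 for Megf10. Both irradiated libraries therefore gave close to the same level of every one of the 5 genes. Between unirradiated B and A the same ratio ran from 0.339 for Sez6 to 1.48 for Megf10, on counts of 1 to 16 per library.

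Per kilobase of gene length, the order of the irradiated levels differed from that of the CPM. Tlx1 was highest at 13.9 ± 0.422 CPM per kilobase, since its length in the files is 2139 bases, followed by Sez6 at 10.8 ± 0.0547, Pi15 at 5.24 ± 0.225, Megf10 at 3.46 ± 0.0747 and Fmn2 at 2.75 ± 0.105 CPM per kilobase. Neighbours in this order did not overlap between libraries. On that scale Tlx1 in irradiated libraries stood above 76.0% of tested genes, Sez6 above 70.7%, Pi15 above 52.8%, Megf10 above 43.6% and Fmn2 above 39.3%. In unirradiated libraries the 5 genes stood above 0.752% to 2.88% of tested genes, a low place that their choice fixed in advance. There the per-kilobase levels ran from 0.0329 ± 0.00703 for Tlx1 to 0.111 ± 0.0772 for Sez6, and the libraries of Sez6 overlapped those of Megf10, Pi15 and Fmn2, while Fmn2 lay below Pi15 and Megf10 in both libraries. The genes thus lay near the middle or in the upper part of tested levels in irradiated libraries. The choice had also set a minimum on summed irradiated counts, so these irradiated places are not independent of it. The place of the 5 genes near the bottom in unirradiated libraries follows from how they were chosen.

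The limits behind the choice were made explicit as at most 23 unirradiated counts, the highest sum among the 5 genes, and more than 400 irradiated counts. These limits held 20 genes. The other 15 were Csn2, Igha, Fgb, Heph, Csn1s2a, Wasf3, Il17b, Dpysl5, Capn6, Lingo3, B4galnt2, Itm2a, Unc5c, Bex4 and Has1, and of these Csn2, Csn1s2a and Fgb are the casein and fibrinogen genes left out by the rule. The other 12 met the same limits without being among the 5, so the 5 genes are not all near-silent genes with such a difference. Above 900 irradiated counts stood 7 genes, the 5 together with Csn2 and the immunoglobulin constant gene Igha. Just under 400 irradiated counts stood Prrg3 with 399 irradiated and 19 unirradiated counts, Camkv with 387 and 10, and Flrt2 with 379 and 16. Just over 23 unirradiated counts stood Steap2 with 711 irradiated and 24 unirradiated counts, C130021I20Rik with 1049 and 25, and Slc4a4 with 789 and 26. Of the 20 genes 19 were protein-coding, and Tlx1 was the 1 gene to which the files give a transcription factor family, the homeobox.

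The mirror image of the limits held no gene. With at most 23 irradiated counts, 0 genes had more than 400 unirradiated counts, and the highest was Notum, a secreted Wnt deacylase, with 12 irradiated and 350 unirradiated counts. With over 100 counts in the other group, 24 genes were near silent in irradiated libraries, against 162 that were near silent in unirradiated ones. The irradiated pair was sequenced more deeply, with 39581799 counts in all against 30581004 in the unirradiated pair, and the limits are on counts as deposited. With counts scaled to the mean library size 15 genes met the limits.

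**Figure D2:**
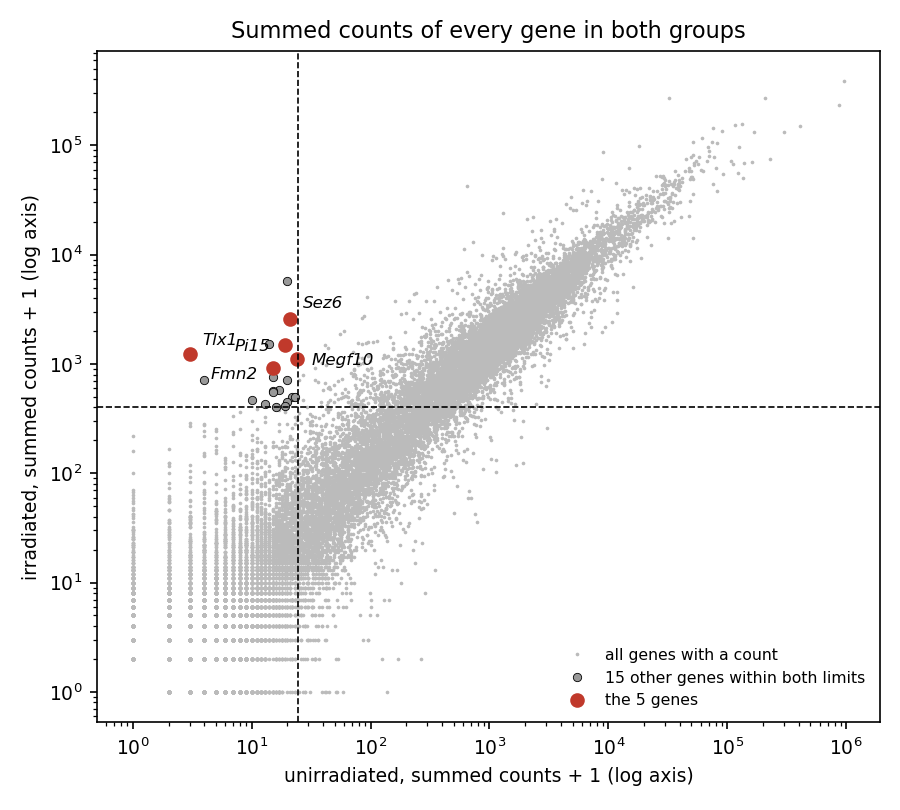
Summed counts plus 1 of every gene, with the irradiated pair on the vertical and the unirradiated pair on the horizontal log axis. Dashed lines mark 400 irradiated and 23 unirradiated counts, and the 5 genes (red) stand with 15 others (dark grey) in the upper left field.

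Likeness to other genes was measured as the Euclidean distance of log2(CPM + 0.5) over the 4 libraries, among 30167 genes with a count. Igha was nearest to Tlx1 (distance 1.10), Sez6 (1.25) and Pi15 (0.404). Whether reads of other immunoglobulin constant genes were counted in Igha was not tested. Fgb, the fibrinogen beta chain, was nearest to Fmn2 (0.437), followed by the ferroxidase gene Heph (0.874). The antisense gene C130021I20Rik was nearest to Megf10 (0.250) and second to Pi15 (0.806). The second nearest genes were Csn1s2a for Tlx1 (1.10), Dmp1 for Sez6 (1.68) and Slc4a4 for Megf10 (0.728). With 4 libraries in 2 groups, this measure mainly compares the level in each group.

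Position was not used in the choice. Within 500 kb of the 5 gene starts lay 129 other genes, of which 51 passed the filter on low counts. Of those, 24 were higher and 12 lower in the same edgeR test at an adjusted p under 0.05, which sets 24 of 51 beside the 33.9% of all tested genes that were higher. Their median log2 fold change was 0.13, against -0.0042 for all tested genes. Crispld1 and Gdap1, counted among the 24, were tested only through their irradiated counts, so the comparison with 33.9% is not an even one. Tested against 1.5-fold, 8 neighbours were higher and 3 lower.

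The neighbour of Pi15 stood out by its size. Crispld1, a CAP superfamily gene like Pi15, starts 125 kb downstream of the Pi15 start and had 24 and 30 counts in irradiated A and B, against 0 and 1 in unirradiated A and B. The ratio of scaled counts was 38.0 with an exact binomial interval of 6.53 to 1527. Its adjusted p was 2.30e-06 by edgeR's quasi-likelihood test. Crispld1 passed the filter on low counts only through its irradiated counts, so a lower call was closed to it. The tested gene on the other side, Gdap1, starts 457 kb away and had 17 and 33 counts against 8 and 1 (log2 fold change 1.94). Gdap1 likewise passed the filter only through its irradiated counts. Its call was lost with DESeq2 and without unirradiated B, with adjusted p between 0.00212 and 0.0827 by edgeR or DESeq2.

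The other loci had no tested neighbour with a rise of similar size. Next to Sez6, Pipox, encoding a peroxisomal oxidase, was at 28.8 ± 0.698 CPM in irradiated and 8.26 ± 0.468 CPM in unirradiated libraries (log2 fold change 1.79, SE 0.121). On its other side Phf12 was at 79.1 ± 3.67 CPM against 71.9 ± 6.96 CPM (0.14), a call lost under 6 of 10 alternatives, among them leaving out irradiated A or unirradiated A. Around Sez6, 15 of 31 tested genes were higher and 5 lower. Around Tlx1, 4 of 12 were higher and 6 lower, with log2 fold changes from -1.15 to 0.77. The genes next to Tlx1 were Kazald1 (0.60) and Btrc (0.39). The call of Kazald1 was lost with DESeq2 and without irradiated A, irradiated B or unirradiated B, with adjusted p up to 0.438.

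For Fmn2 and Megf10 few neighbours could be tested. Near Fmn2, Ifi205, an interferon-inducible gene 470 kb away, was at 5.74 ± 0.301 CPM in irradiated and 1.52 ± 0.209 CPM in unirradiated libraries. Of 4 tested genes near Megf10, 2 were higher, 1 was lower and Prrc1 did not pass (log2 fold change 0.11). Lmnb1, encoding lamin B1, was higher by 0.75 on the log2 scale, and C330018D20Rik was lower (-0.75).

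**Figure D3:**
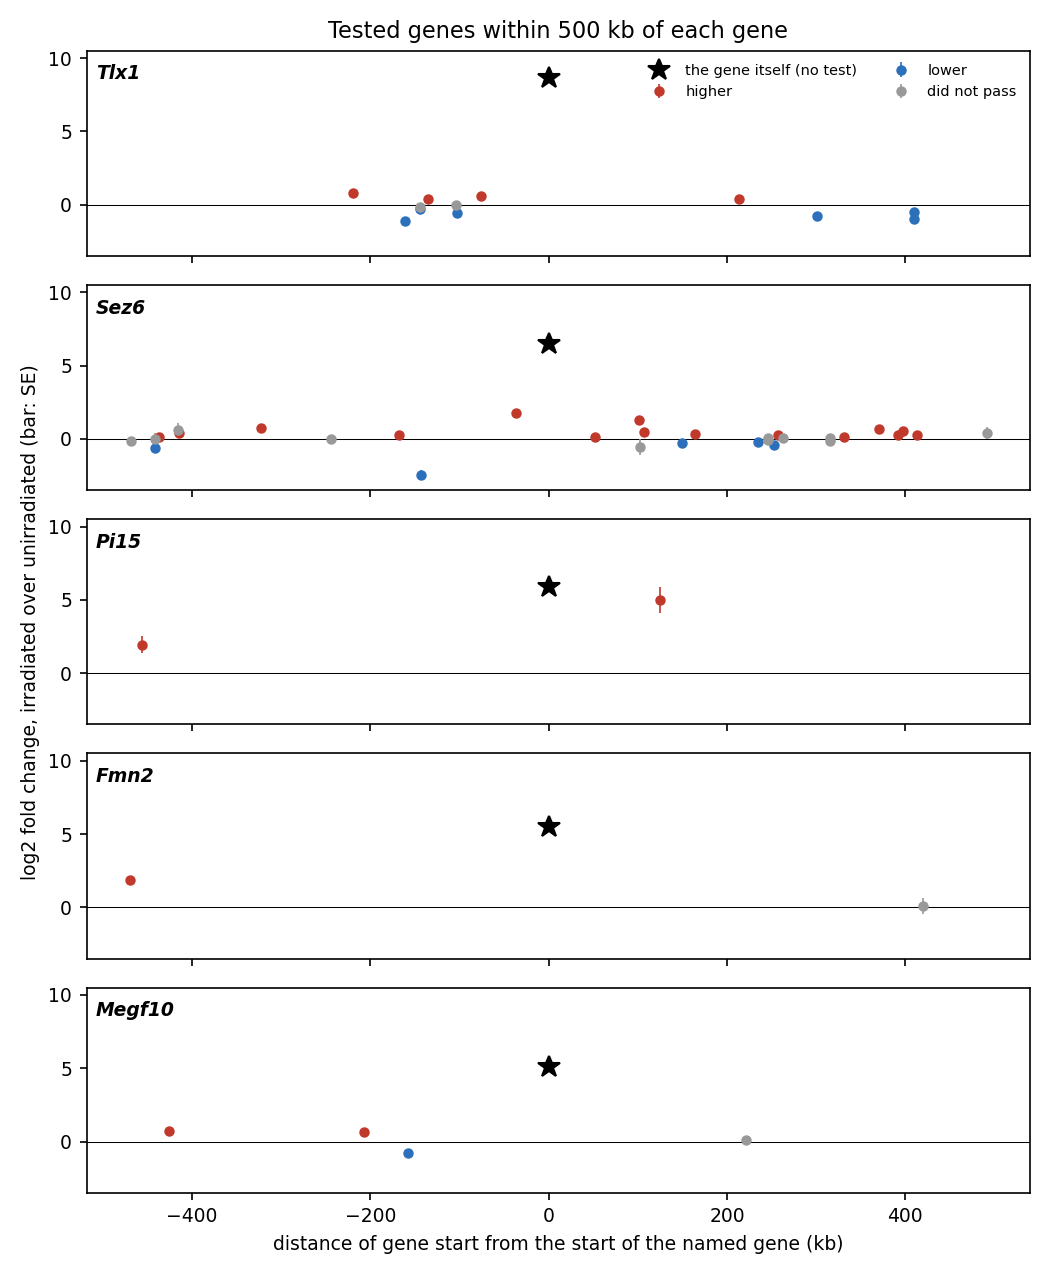
Log2 fold change (irradiated over unirradiated, bar: SE) of tested genes against the distance in kb of their start from the start of each of the 5 genes, which are drawn as stars. Crispld1, 125 kb from Pi15, is the only neighbour drawn above a log2 fold change of 2.

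Antisense genes overlapped Tlx1 and Pi15 in the files' coordinates. Tlx1os shares 2887 bases of span with Tlx1 and had 11 and 11 counts in irradiated A and B, against 0 and 0 in unirradiated A and B, which is at least 5.16-fold higher against a floor of 3 counts over the group. Gm28154 shares 15856 bases with Pi15 and had 2 and 3 counts against 0 and 0. The library kit does not mark strand, so reads of a gene and its antisense partner cannot be told apart. Sez6, Fmn2 and Megf10 overlapped no other gene.

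Relatives and partners of the 5 genes were described by 8 lists holding 106 genes, of which 84 were tested. In these lists 47 genes were higher and 13 lower, beside 33.9% and 32.5% of all tested genes. DESeq2 called 43 of them higher and 8 lower, and over all genes 4493 higher and 3424 lower. The lists contain none of the 5 genes. In bulk samples, a higher level can come from more cells of a type or from more RNA per cell, which cannot be told apart here.

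Of the Tlx1 relatives, the paralogue Tlx3 was at 4.67 ± 0.135 CPM in irradiated and 3.22 ± 0.592 CPM in unirradiated libraries (log2 fold change 0.57, SE 0.240), and Tlx2 had 1 count in all. The call of Tlx3 was lost under 6 of 10 alternatives, among them leaving out irradiated A, irradiated B or unirradiated A (adjusted p 0.0200 to 0.289 by edgeR or DESeq2). PBX and MEIS proteins are homeobox cofactors. Meis2 was at 4.65 ± 0.306 CPM against 1.53 ± 0.109 CPM (1.57) and Meis3 was also higher (0.59). Meis1 was lower (-0.67), a call lost with DESeq2 and without irradiated B or unirradiated B. Of the 8 tested genes of this list 3 were higher, 1 was lower and 4 did not pass.

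Factors of the embryonic spleen mesenchyme, where Tlx1 is known to act, were at or near 0. Nkx2-3, Nkx2-5, Tcf21 and Barx1 had 0 counts in all 4 libraries, Nkx3-2 had 3 counts in irradiated B alone, and Wt1 had 1 irradiated and 3 unirradiated counts. Retinoid enzymes, whose genes are regulated in the developing spleen, moved both ways. Aldh1a3, a retinoic acid synthesising enzyme, rose to 62.2 ± 2.47 CPM in irradiated libraries, against 8.003 ± 1.95 CPM in unirradiated ones, and the retinoic acid degrading enzyme Cyp26a1 had 64 and 114 counts against 7 and 5. Cyp26b1, of the same function, was at 19.95 ± 0.0239 against 9.07 ± 0.926 CPM. Aldh1a1 fell to 2.53 ± 0.765 CPM in irradiated libraries, against 30.4 ± 1.28 CPM in unirradiated ones (log2 fold change -3.53, SE 0.153). Aldh1a2 was also lower (-1.63), a call lost with DESeq2 and without irradiated B or unirradiated A. Of the 5 tested genes of this list 3 were higher and 2 lower, and Cyp26a1 passed the filter on low counts only through its irradiated counts.

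Paralogues of Sez6 did not share its level. Sez6l had 2 and 11 counts in irradiated A and B, against 1 and 0 in unirradiated A and B, below the filter. Sez6l2 was at 1.88 ± 0.193 CPM in irradiated and 1.71 ± 0.703 CPM in unirradiated libraries (adjusted p = 0.816 by edgeR). The sheddase genes Bace1 and Bace2 were higher, Bace1 at 33.3 ± 3.99 against 23.3 ± 4.49 CPM and Bace2 at 20.02 ± 2.13 against 3.47 ± 0.327 CPM. Among genes of complement regulators with sushi domains, Susd4 was lower at 11.3 ± 1.67 against 22.2 ± 0.598 CPM. Of the 9 tested genes of this list 3 were higher and 1 lower. Without unirradiated B there were 2 lower.

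All 6 tested genes of the CAP superfamily other than Pi15 were higher, beside 33.9% of all tested genes, with a median log2 fold change of 2.62. Of these, R3hdml and Crispld1 passed the filter on low counts only through their irradiated counts. A lower call was closed to them, so the comparison with 33.9% is not an even one. R3hdml had 139 and 194 counts in irradiated A and B, against 6 and 0 in unirradiated A and B, and the ratio of scaled counts was 39.0 (17.7 to 107). Glipr1 was at 23.2 ± 1.66 CPM in irradiated and 2.64 ± 0.408 CPM in unirradiated libraries, Pi16, a gene of adventitial fibroblasts, at 26.7 ± 2.31 and 6.01 ± 0.608 CPM, and Glipr2 at 6.11 ± 0.712 and 2.32 ± 0.426 CPM. Crispld2, by far the most abundant, was at 614 ± 7.84 and 171 ± 8.497 CPM. Crispld1 is described above as the neighbour of Pi15. The other 7 listed CAP genes, among them Crisp1, Crisp2, Crisp3 and Crisp4, had at most 1 count in all and were not tested. The 6 calls held under all 12 alternatives of the fit and its threshold, the test against 1.5-fold included. Of 15 tested fibroblast markers 12 were higher and 1, Fbln1, was lower in the same libraries, with sums of 2204 and 2210 CPM in irradiated against 727 and 698 CPM in unirradiated A and B. Their part in these differences was not tested.

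Of 12 tested formins other than Fmn2, 8 were higher and 0 lower, and the median log2 fold change was 0.51. Fhod3 was at 9.66 ± 0.0276 CPM in irradiated and 3.66 ± 1.12 CPM in unirradiated libraries, Diaph2 at 20.9 ± 1.58 and 9.27 ± 0.622 CPM, and Inf2 at 34.0 ± 1.53 and 15.3 ± 3.29 CPM. The closest relative, Fmn1, was at 34.3 ± 0.457 and 28.0 ± 1.19 CPM (log2 fold change 0.29), a call lost without unirradiated A. Diaph1, the formin with the highest CPM, did not pass at 147 ± 4.20 and 144 ± 6.16 CPM. These changes were far smaller than that of Fmn2, and 5 formins passed a test against 1.5-fold. Among partners of Fmn2 in actin assembly and vesicle movement, Spire1 was at 45.3 ± 0.759 CPM in irradiated and 13.7 ± 0.317 CPM in unirradiated libraries and the vesicle motor Myo5a at 37.2 ± 3.26 and 16.7 ± 0.115 CPM. Myo5b was lower at 56.1 ± 4.497 and 108 ± 0.498 CPM, as were Myo5c, Pfn1 and Rab11a, the call of Rab11a being lost with no filter and with DESeq2. In all 3 of the 11 were higher and 4 lower.

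MEGF genes and scavenger receptors with EGF-like repeats, set beside Megf10, moved both ways. Scarf2 was at 15.7 ± 0.0566 CPM in irradiated and 4.10 ± 0.149 CPM in unirradiated libraries, and the clearance receptor Stab1 at 43.2 ± 1.41 and 21.8 ± 1.11 CPM. Megf9 (0.87) and Pear1 (0.58) were also higher on the log2 scale, the call of Pear1 being lost with DESeq2 and without irradiated B. Megf6 was lower at 15.04 ± 2.55 and 24.9 ± 1.27 CPM. Scarf1 was lower too (-0.54), a call lost with DESeq2, with no filter and without irradiated A or unirradiated B. The closest paralogue, Megf11, did not pass at 1.25 ± 0.620 and 1.39 ± 0.139 CPM. Of the 9 tested genes 4 were higher and 2 lower.

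Of 24 tested engulfment genes 17 were higher and 3 lower, and the median log2 fold change was 0.64. Against 1.5-fold, 11 were higher. Gulp1, the adaptor that binds Megf10, was at 13.2 ± 0.879 CPM in irradiated and 1.90 ± 0.176 CPM in unirradiated libraries (log2 fold change 2.77, SE 0.212), the largest change in the list. Mfge8, which bridges dying cells to integrins, was at 1174 ± 30.9 and 302.5 ± 5.10 CPM, the receptor Lrp1 at 146 ± 6.84 and 41.1 ± 0.637 CPM, and the integrin Itgb3 at 68.7 ± 2.51 and 19.4 ± 0.943 CPM. The lower ones were Pros1 (-0.73), Tyro3 (-0.35) and Dock1 (-0.19), the call of Dock1 being lost with DESeq2, with no filter and without irradiated B. Many engulfment genes are expressed by macrophages, of whose 10 markers 8 were higher and 1 lower, with sums of 672 and 668 CPM in irradiated against 348 and 339 CPM in unirradiated A and B. None of these macrophage markers was at 0, and their part in these differences was not tested.

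**Figure D4:**
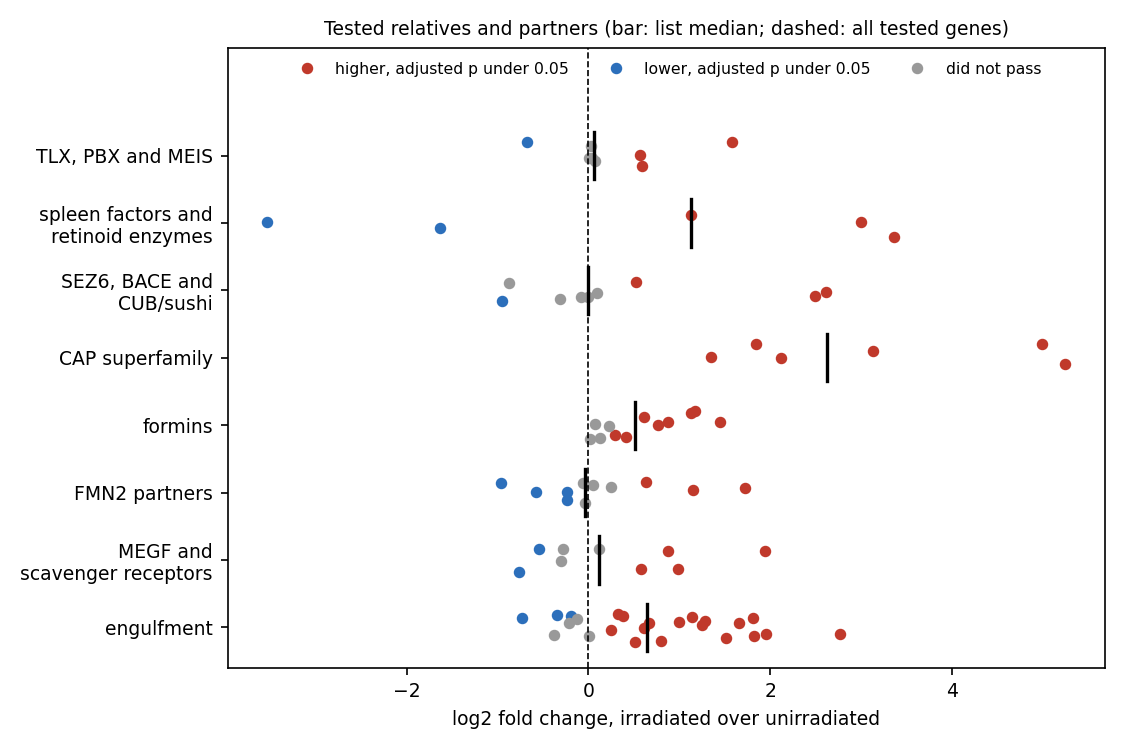
Log2 fold change (irradiated over unirradiated) of the tested genes of 8 lists of relatives and partners, red where higher, blue where lower and grey where the test was not passed, with each list's median as a bar and the median of all tested genes as a dashed line. All 6 CAP superfamily genes lie to the right, between 1.34 and 5.24, of which R3hdml and Crispld1 were tested only through their irradiated counts.

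Markers of the cell types in which the 5 genes are best known were mostly at low levels. Of 14 neuron markers 5 were tested, with 2 higher and 3 lower (1 higher with DESeq2), and Map2 made up most of their sum of 107 and 106 CPM in irradiated and 76.4 and 71.5 CPM in unirradiated A and B. Map2 was at 102 ± 0.819 and 64.0 ± 3.03 CPM, while Snap25 had 1 and 7 counts in irradiated and 0 in unirradiated libraries, and Syt1, Gap43 and Elavl4 had at most 5 counts in all. Of 8 tested astrocyte and Schwann cell markers 1 was higher and 5 lower, with DESeq2 2 lower. Their sums were 441 CPM in both irradiated libraries and 547 and 568 CPM in the unirradiated ones, of which Sox10, also expressed in mammary epithelium, was the greater part. The higher marker was the astrocyte filament gene Gfap, with 30 and 59 counts against 11 and 9, and Aqp4 had at most 3 counts in a library.

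Markers of satellite cells and skeletal muscle summed to 10.8 and 12.7 CPM in irradiated and 22.7 and 23.7 CPM in unirradiated A and B, with 0 of 4 tested higher and 2 lower. There was 1 higher with DESeq2 or no filter, and 1 lower with DESeq2 or the stricter filter. Pax7, which defines satellite cells, had 6 and 12 counts in irradiated A and B and 0 in both unirradiated libraries, at least 4.22-fold higher against a floor of 3 counts over the group, and Myod1 and Myog had 0 counts. Of 10 oocyte markers Zp2, Figla, Dazl and Zar1 had 0 counts in all libraries. The only one tested, Gdf9, was lower (log2 fold change -2.93). Gdf9 passed the filter on low counts only through its unirradiated counts, so a higher call was closed to it. The list summed to 1.08 and 1.17 CPM in irradiated and 2.45 and 3.16 CPM in unirradiated A and B.

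Markers of more abundant cell types are given for the samples as a whole. Epithelial and tumour cell markers summed to 9421 and 9775 CPM in irradiated and 10438 and 10450 CPM in unirradiated A and B, far above the fibroblast markers although the cells are labelled CAFs, and 3 of 16 were higher and 10 lower. Pdgfra, the gene of the antibody's target, was at 23.7 ± 1.17 against 5.59 ± 0.223 CPM. Chondrocyte markers summed to 2176 and 2190 CPM against 900 and 902 CPM, with 6 of 9 tested higher and 3 lower, and the cartilage collagen Col2a1 at 1033 ± 6.11 against 21.8 ± 1.35 CPM. Matn1 had 0 counts. Of 10 tested endothelial markers 9 were higher, and of 6 tested T and NK cell markers 0 were higher and 4 lower. Of 10 lactation genes 6 were higher and 1 lower. Their sums were nonetheless lower, at 3983 and 4118 CPM in irradiated and 6121 and 6182 CPM in unirradiated A and B, since the lower gene, the kappa-casein gene Csn3, made up most of them at 3203 ± 102 and 5791 ± 48.7 CPM. None of these lists shows which cells the transcripts of the 5 genes came from, and their part in the differences was not tested.

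**Figure D5:**
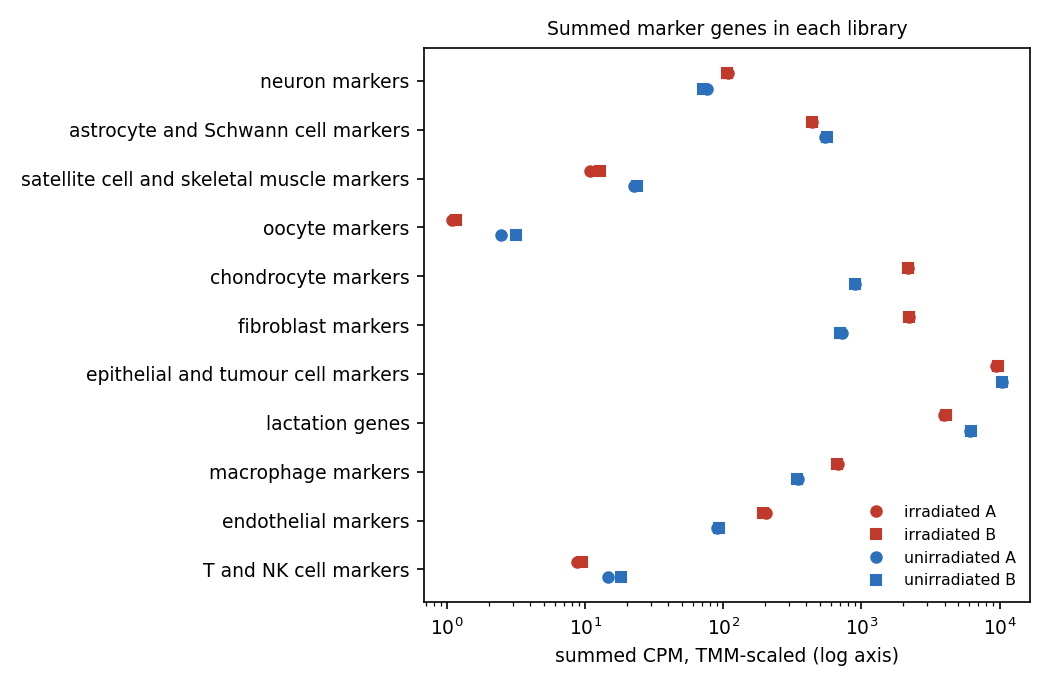
Summed TMM-scaled CPM (log axis) of 11 lists of marker and lactation genes in each library, irradiated in red above unirradiated in blue. Epithelial markers are highest in all 4 libraries, and oocyte markers are lowest, between 1.08 and 3.16 CPM.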

How the data were processed

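Bulk RNA was sequenced in 4 libraries, 2 irradiated and 2 unirradiated. The authors deposited raw read counts for every gene in each library, without normalization, next to the length of each gene. STAR 2.5, HTSeq 0.6.1 and DESeq2 with mm10 are named in the submitters' processing notes, while their settings and the annotation are not stated there. Of 54532 gene identifiers 54495 occur in GENCODE M21 (GRCm38), 98.3% with identical coordinates.

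Counts were tested with edgeR 4.0.16 in R 4.3.3 (filterByExpr, TMM, quasi-likelihood fit without the legacy option, F-test, Benjamini-Hochberg over 15961 genes, threshold 0.05). Residual degrees of freedom were 2, to which pooling across genes added 60.0. Each SE is the size of the log2 change divided by the root of its F statistic. The code was tested on simulated data with known changes in a small share of genes. Of 50 changed genes at each size, 16 were recovered at 1.25-fold, 39 at 1.5-fold, 43 at 2-fold and 50 at 4-fold. Of 15366 unchanged genes 9 were called. Far more genes were called in the real libraries, so the simulation checks the code and not the error rate there.

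The 5 genes and all lists, tests and motifs were chosen with earlier results of these data known. Named genes are the 5, genes within or just outside the count limits, the nearest by pattern, list members and neighbours by position. Pax7, Xkr6, Rspo3, Gfap and other marker genes were picked once their values were known.

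Libraries A and B of a group differed by a median chi-square of 2.14 (irradiated) and 2.11 times (unirradiated) that of counting alone and were kept as replicates. Alternatives were RLE and upper-quartile scaling, no or a stricter filter, DESeq2 1.42.0, the replicate letter as a block, 0.1 as threshold, a test for changes beyond 1.5-fold and leaving out each library. With 1 library left in a group, it is assumed to vary like the other group's pair. Intervals and floors cover counting error only. Single results for a few listed or neighbouring genes are not reported here.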

Additional observations from a re-analysis of the deposited data

How the results depend on the processing

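Over 10 refits, in which the choice of the 5 genes fixes the direction, their log2 fold changes ran from 8.41 to 8.82 for Tlx1, 6.03 to 7.56 for Sez6, 5.79 to 5.91 for Pi15, 5.06 to 6.46 for Fmn2 and 4.77 to 5.33 for Megf10. Tested against 1.5-fold, 2032 genes were higher and 1754 lower, 5 listed relatives were lower, and 8 neighbours were higher and 3 lower. DESeq2 called 3424 genes lower and 8 listed relatives lower. Within 250 kb, 12 neighbours were higher and 7 lower, and within 1000 kb 42 and 27, from fewer and more genes. With over 200 irradiated counts 57 genes met the count limits, and with over 800 there were 7. The correlation of same-letter deviations between groups was 0.0106 over genes, and no pairing by letter is given by the labels. With the replicate block 5418 genes were higher and 5200 lower, and each list's counts of higher and lower genes were within 1.5 times the main ones. Of 241 single genes retested, none with a call changed direction. With 2 libraries a group and 1 to 16 unirradiated counts per gene and library, the size of each difference is limited by the unirradiated counts.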

Other observations

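Of the genes that met the same count limits without being one of the 5, these were picked after their values were seen. Unc5c, a netrin receptor, had 187 and 241 counts in irradiated A and B, against 3 and 9 in unirradiated A and B, and Dpysl5, a collapsin response mediator protein gene, had 230 and 327 against 5 and 9. Wasf3, an activator of actin branching, had 233 and 340 against 10 and 6. Il17b, a cytokine gene, had 220 and 341 against 7 and 7, and B4galnt2, a glycosyltransferase gene, had 162 and 300 against 2 and 7. Of the 20 genes within the limits, 4 lay on the X chromosome (Heph, Capn6, Itm2a and Bex4), where 3.16% of tested genes lie, a count noticed after the values were seen and not tested.

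The irradiated libraries disagreed for Gm18194, a pseudogene that stood just outside the limits with 458 counts in irradiated A and 13 in irradiated B, against 11 and 15 in unirradiated A and B.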
